A study of Mus musculus with 2 samples.

Results

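Endothelial cells line blood vessels, and at the stage of mid-gestation the vessels that surround the neural tube begin to grow into the forebrain. A dissected forebrain of this stage can therefore contain vessel cells next to neural progenitors, whereas a culture of ES cells holds no vessels. To see how the vessel lining is represented in the RNA-seq of this study, 9 genes with a known function in endothelial cells were selected by name (*Cdh5*, *Pecam1*, *Kdr*, *Flt1*, *Tek*, *Tie1*, *Emcn*, *Esam* and *Cldn5*). The rule uses no measured value, but the genes were chosen with earlier results of these data known. All 9 are protein-coding and all 9 are listed in both gene tables, among 29311 listed genes. The tables give 1 value per gene and sample, labelled RPKM, that is a read number per kb of exon after a scaling of each sample by the authors. This scaling is not that of the usual RPKM, and the values are much higher. Their absolute levels can therefore not be compared with RPKM values of other studies. Genes without reads in either sample are not listed.

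Wild-type ES cells of the E14 line were compared with wild-type forebrain cells of B6CBAF1/J embryos at E10.5, with 1 sample each and no replicates. The ES cells were cultured without feeder cells, in the presence of serum and LIF. Forebrain RNA came from single embryos of E10.5, and no sorting of cells is described. Any difference between the samples may thus reflect the strain, the culture or the single library as well as the cell type, and these cannot be told apart. In a bulk sample, fewer endothelial cells and less RNA per endothelial cell cannot be told apart either.

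The number of reads behind each value was inferred from the low RPKM values, which cluster at whole multiples of the value of 1 read. This gave 42735441 reads on genes for ES cells and 59695963 for E10.5 forebrain. The value of 1 read on 1 kb of exon was 1.2222 in ES cells and 0.8203 in the forebrain. In usual RPKM, read numbers of this size would give a far lower value. The median RPKM over all listed genes was 48.94 and 62.37, respectively. Each interval given for an RPKM is a 95% Poisson interval (exact) for its inferred reads and covers counting error only, not the variation between embryos or cultures. The labels of both samples were compared with marker genes. All 9 listed genes of a list for forebrain neuroepithelium had the higher RPKM in the forebrain, as in the case of *Lhx2* (0 in ES cells and 876.64 in the forebrain). All 10 genes of a pluripotency list had the higher RPKM in ES cells, as for *Pou5f1* (11243.84 and 42.9, respectively).

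The blood vessel lining depends on a small number of well-known surface proteins. VE-cadherin (*Cdh5*) and claudin 5 (*Cldn5*) seal the contacts between endothelial cells, and the immunoglobulin-type proteins PECAM1 (CD31) and ESAM are found at the same contacts. Endomucin (*Emcn*) is a sialomucin on the surface of capillaries and veins. Growth and stability of vessels are controlled by 2 pairs of receptor tyrosine kinases, the VEGF receptors KDR and FLT1 and the angiopoietin receptor TEK with its relative TIE1. Transcription of such genes commonly involves factors of the ETS family, which bind DNA around a GGAA core.

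Promoter sequences of *Emcn*, *Flt1*, *Tie1*, *Kdr*, *Tek* and *Cldn5* were found in the RefSeq promoter table (GRCm38.p6, a later build than the mm9 of the gene tables), while none was printed or searched for *Cdh5*, *Pecam1* and *Esam*. The 250 bases before the RefSeq start were searched on either strand. The ETS-type words AGGAAG or CGGAAG were present in 3 of the 6 promoters (*Emcn*, *Flt1* and *Tie1*). Of all 32851 promoters of the same length, 39.2% had at least one of them. AGGAAG alone was present in 3 of the 6 and in 29.5% of all promoters. The 3 promoters with a match are shown together with that of *Kdr*, the highest of the 9 genes in the forebrain, which holds none of these words. The shorter core GGAA was not searched, and it does occur in the *Kdr* stretch on both strands. Capitals mark the ETS-type words. Each stretch ends at the RefSeq start or, where a transcript of the GENCODE annotation begins earlier, at that transcript. This leaves 239 of the 250 bases for *Emcn*, 247 for *Kdr* and only 38 for *Tie1*. Most of the window searched for *Tie1* thus lies behind the start of an annotated transcript.
*Emcn* (chr3:137340828-137341066, plus strand): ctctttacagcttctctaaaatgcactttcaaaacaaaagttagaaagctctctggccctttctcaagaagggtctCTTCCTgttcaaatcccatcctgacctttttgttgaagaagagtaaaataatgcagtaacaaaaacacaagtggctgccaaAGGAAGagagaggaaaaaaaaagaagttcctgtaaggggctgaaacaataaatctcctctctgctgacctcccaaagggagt
*Flt1* (chr5:147726012-147726261, minus strand): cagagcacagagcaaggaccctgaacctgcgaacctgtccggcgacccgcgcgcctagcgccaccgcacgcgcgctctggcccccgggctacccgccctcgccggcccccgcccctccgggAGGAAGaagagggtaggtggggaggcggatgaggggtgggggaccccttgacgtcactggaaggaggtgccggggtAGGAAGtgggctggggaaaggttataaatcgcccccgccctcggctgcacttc
*Tie1* (chr4:118490062-118490099, minus strand): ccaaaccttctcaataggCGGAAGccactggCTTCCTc
*Kdr* (chr5:75978459-75978705, minus strand): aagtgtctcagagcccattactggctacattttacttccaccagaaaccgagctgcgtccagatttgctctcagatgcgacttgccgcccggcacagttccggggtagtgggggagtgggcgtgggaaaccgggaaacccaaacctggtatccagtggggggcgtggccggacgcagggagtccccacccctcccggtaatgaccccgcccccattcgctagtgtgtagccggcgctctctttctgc

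Positions are counted from the RefSeq start, which is not the end of the printed stretch in *Emcn*, *Tie1* and *Kdr*. The words start at positions -174 and -93 in *Emcn*, at -129 and -53 in *Flt1* and at -232 and -219 in *Tie1*. A TATA-type word, TATAAA, was found in 1 of the 6 promoters, at position -31 of *Flt1*, and in 12.4% of all promoters. Of the SOX-type words ACAAAG and ACAATG, the former was present in *Tek* at position -26, and at least one of them in 25.2% of all promoters. The GATA-type word GATAAG was present in 0 of the 6 and in 6.5% of all promoters. The number of CpG dinucleotides in the 250 bases varied from 1 in *Emcn* and 2 in *Tek* to 16 in *Kdr* and 23 in *Flt1*, with a median of 6 over all promoters. A match describes these letters only, and binding was not measured.

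Transcripts of all 9 endothelial genes were readily detected in the forebrain. Each was above the median RPKM of the listed genes in this sample, at 75.42 to 601.26. In ES cells, 2 of the 9 genes (*Pecam1* and *Esam*) were above the median of that sample, and the other 7 were below it. The values in ES cells covered a much wider range, from 0.34 to 551.14, which is a 1621-fold difference between the highest and lowest gene. In E10.5 forebrain the highest and lowest differed by 7.97-fold.

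**Figure D1:**
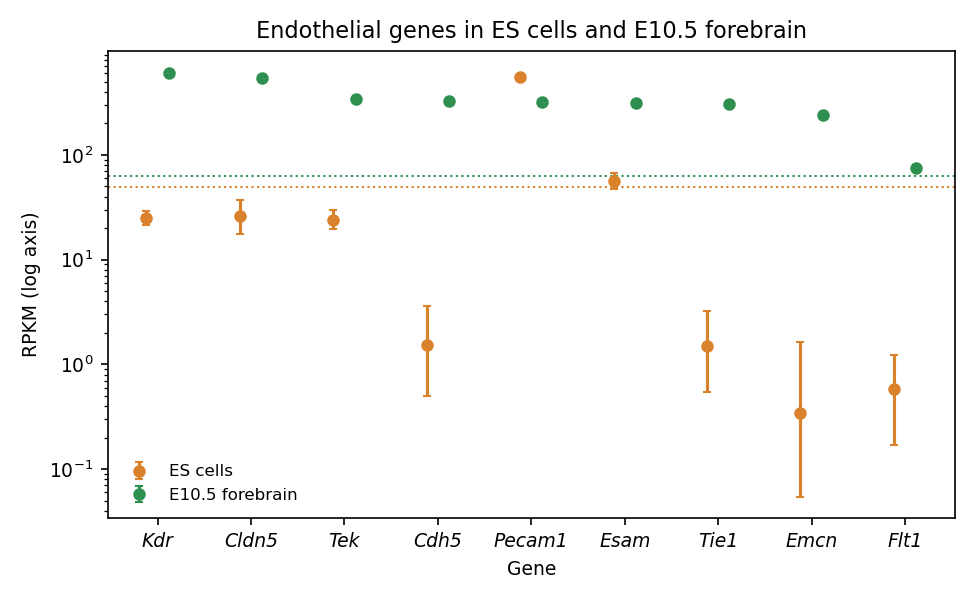
RPKM (log axis) of the 9 endothelial genes in ES cells (orange) and E10.5 forebrain (green), 1 sample each, ordered by the forebrain level. Bars are 95% Poisson intervals for counting error, hidden by the points where they are small, and dotted lines are the median over all listed genes in the same colours. The forebrain values lie between 75.42 and 601.26, whereas 4 genes are below 2 in ES cells and *Pecam1* reaches 551.14.

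Of the 9 genes, 8 had the higher RPKM in the forebrain, and the exception was *Pecam1*. Among all listed genes 50.6% had the higher value in the forebrain, and among the 19620 protein-coding genes 55.2%. The same 8 genes were at least 4-fold higher in the forebrain on log2(RPKM + 1), where differences of low genes come out too small. This was the case for 14.4% of all listed genes and for 15.6% of the protein-coding genes. None of the 9 genes (0) was at least 4-fold higher in ES cells, compared with 11.3% of all listed genes and 8.9% of the protein-coding genes. The median log2 ratio of forebrain to ES cells was 4.53 over the 9 genes, 0.17 over the protein-coding genes and 0.01 over all listed genes. With 1 sample per cell type, these counts have no replicate check.

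**Figure D2:**
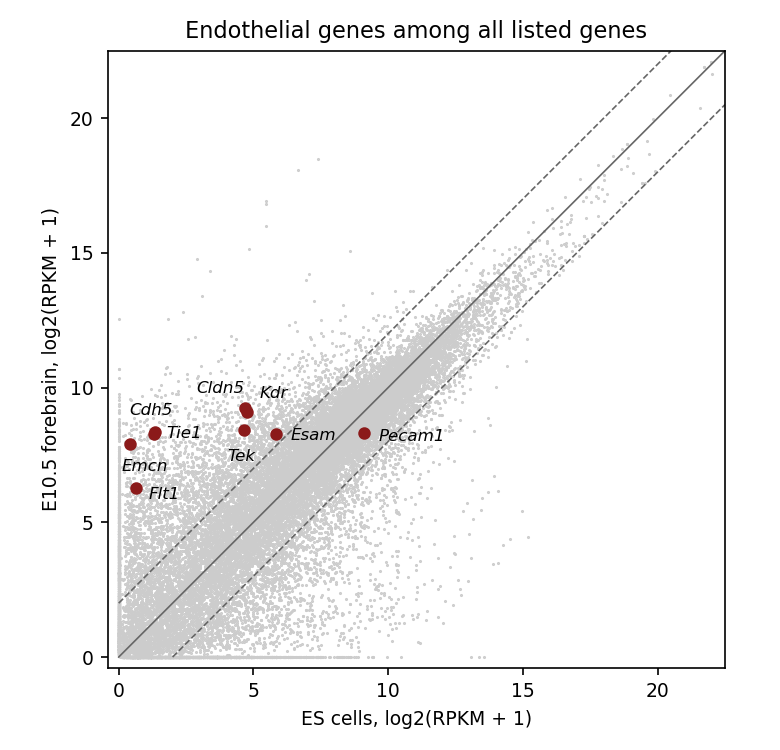
Log2(RPKM + 1) in ES cells (x axis) and E10.5 forebrain (y axis) for all 29311 listed genes (grey) and the 9 endothelial genes (dark red). The solid line marks equal values and the dashed lines a 4-fold difference. Above the upper dashed line lie 8 of the 9 genes, and *Pecam1* lies between the solid and the lower dashed line.

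The junction gene *Cdh5* (ENSMUSG00000031871, chromosome 8, 106625525 to 106668402, plus strand, mm9), which encodes the cadherin that defines endothelial adherens junctions, had an RPKM of 1.53 in ES cells and of 325.7 in the forebrain. The former value rests on 5 reads (0.498 to 3.58) and the latter on 1583 reads (310 to 342). The ratio was 213 with a counting interval of 90.9 to 655, and the log2 ratio of 7.01 was at percentile 99.4 of all listed genes. *Cdh5* was thus close to undetected in ES cells.

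*Emcn* (ENSMUSG00000054690, chromosome 3, 137004031 to 137095149, plus strand) gave the lowest value of the 9 genes in ES cells and the largest ratio. Its RPKM of 0.34 in ES cells corresponds to 1.5 reads, a fraction whose origin was not tested, and lies below the 0.68 that 3 reads would give. In E10.5 forebrain its RPKM was 239.64 from 1580 reads (228 to 252). The ratio was 705, with an interval of 147 to 4382 when the reads in ES cells are rounded to 2. The size of this ratio is therefore poorly defined, and its lower limit was the highest among the 9 genes.

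*Cldn5* (ENSMUSG00000041378, chromosome 16, 18776940 to 18778353, plus strand), the main claudin of tight junctions in brain vessels, had an RPKM of 25.9 in ES cells from 30 reads (17.5 to 37.0). In E10.5 forebrain it reached 544.52 from 939 reads (510 to 581), the second highest value of the 9 genes. The ratio was 21.0 (14.6 to 31.3). *Cldn5* has 1 exon and the shortest exonic length of the 9 genes, 1414 bp, so that 3 reads already correspond to an RPKM of 2.6 in ES cells.

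*Esam* (ENSMUSG00000001946, chromosome 9, 37335663 to 37345904, plus strand), an adhesion molecule of endothelial tight junctions that platelets carry as well, was clearly detected in both samples. Its RPKM was 56.42 in ES cells from 132 reads (47.1 to 66.7) and 309.69 in the forebrain from 1082 reads (291 to 329). At 5.49 (4.59 to 6.64), its ratio was the lowest of the 8 genes that were higher in the forebrain. The value in ES cells was at percentile 51.6 of the listed genes, in the middle of all genes.

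*Pecam1* (ENSMUSG00000020717, chromosome 11, 106515531 to 106611942, minus strand) encodes CD31, the classical surface marker of endothelium, which is also known on leukocytes, platelets and mouse ES cells. It had an RPKM of 551.14 in ES cells from 1945 reads (527 to 576) and of 316.51 in the forebrain from 1665 reads (302 to 332). It was the only gene of the 9 with the higher value in ES cells, by 1.74-fold, and the interval of the ratio of forebrain to ES cells was 0.538 to 0.614. The log2 ratio of -0.80 stayed below 0 under each of the 4 other scalings of the samples, at -0.53 to -0.82. In ES cells *Pecam1* was at percentile 79.6 of the listed genes and held 80.3% of the summed RPKM of the 9 genes, compared with 10.3% in the forebrain. A snoRNA gene (*U3*) overlaps *Pecam1* on the opposite strand. The libraries are strand-specific, but whether the counting used the strand is not given, so that reads of both genes may not be fully separated.

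Sums over the 9 genes depended on *Pecam1* accordingly. The summed RPKM was 686.49 in ES cells and 3064.59 in the forebrain, a ratio of 4.46. Without *Pecam1*, the sums were 135.35 and 2748.08 and the ratio was 20.3.

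The receptor genes were all higher in the forebrain, but to a different extent within each pair. *Kdr* (ENSMUSG00000062960, chromosome 5, 76328852 to 76374483, minus strand), the main signalling receptor for VEGF, had an RPKM of 24.99 in ES cells from 149 reads (21.2 to 29.4). Its RPKM of 601.26 in the forebrain, from 5335 reads (585 to 618), was the highest of the 9 genes, at percentile 80.8 of the listed genes. The ratio was 24.1 (20.4 to 28.5). *Flt1* (ENSMUSG00000029648, chromosome 5, 148373180 to 148537587, minus strand), which binds VEGF with high affinity and limits its signal, had an RPKM of 0.58 in ES cells. This corresponds to 5.5 reads, rounded to 5 for the interval (0.171 to 1.23). In E10.5 forebrain *Flt1* had 75.42 from 1065 reads (71.0 to 80.1). The ratio was 130, with an interval of 61.1 to 441 on the rounded reads.

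*Kdr* therefore exceeded *Flt1* in both samples. The RPKM of *Kdr* was 7.97 times that of *Flt1* in the forebrain (counting interval 7.46 to 8.52) and 43.1 times in ES cells (19.9 to 148). The size of this difference depends on the length that is assigned to *Flt1*. All annotated exons of *Flt1* add up to 11583 bp, while its longest transcript has 6895 bp. With the length of the longest transcript for both genes, an alternative chosen after the values were seen, the ratio in the forebrain was 5.83. Of 11153 sequences of 50 bp in the coding transcripts of *Flt1*, 9 were also found in transcripts of other genes, while for each of the other 8 genes the number was 0.

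*Tek* (ENSMUSG00000006386, chromosome 4, 94405980 to 94541667, plus strand), the angiopoietin receptor TIE2, had an RPKM of 24.1 in ES cells from 93 reads (19.5 to 29.6) and of 343.92 in the forebrain from 1976 reads (329 to 360). The ratio was 14.3 (11.6 to 17.8). *Tie1* (ENSMUSG00000033191, chromosome 4, 118143796 to 118162666, minus strand), a relative without a known high-affinity ligand that modulates TEK, had 1.49 in ES cells from 6 reads (0.547 to 3.25) and 307.93 in the forebrain from 1846 reads (294 to 322). Its ratio was 207 (94.7 to 563). Their levels were close in the forebrain, where *Tek* had 1.12 times the RPKM of *Tie1* (1.05 to 1.19). With the length of the longest transcript the order was reversed, at 348 for *Tek* and 358 for *Tie1*. In ES cells *Tek* had 16.2 times the RPKM of *Tie1* (7.16 to 45.2).

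When the genes are ordered by their RPKM in the forebrain, *Kdr* and *Cldn5* come first and *Emcn* and *Flt1* last. In between, *Tek*, *Cdh5*, *Pecam1*, *Esam* and *Tie1* extended over a narrow range, from 307.93 to 343.92. No neighbours within this range differed beyond counting error. The ratios of *Tek* to *Cdh5*, *Cdh5* to *Pecam1*, *Pecam1* to *Esam* and *Esam* to *Tie1* were 1.06, 1.03, 1.02 and 1.01. The ends of the range differed beyond counting error at the exonic lengths used, with *Tek* at 1.12 times *Tie1* (1.05 to 1.19). The steps from *Kdr* to *Cldn5* (1.10, interval 1.03 to 1.18), from *Cldn5* to *Tek* (1.58, 1.46 to 1.71), from *Tie1* to *Emcn* (1.28, 1.20 to 1.38) and from *Emcn* to *Flt1* (3.18, 2.94 to 3.44) exceeded counting error. The order between *Cldn5* and *Flt1* depends on the length that is used. By the longest transcript, *Esam* had 476, *Pecam1* 397, *Emcn* 368, *Tie1* 358, *Tek* 348 and *Cdh5* 326. *Tek* was thus below *Tie1*, and *Tie1* below *Emcn*, the reverse of their order by all exons. *Kdr* (739) and *Flt1* (127) kept the first and last place.

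In ES cells, the order was different and the genes formed separate levels. *Pecam1* had 9.77 times the RPKM of *Esam* (8.21 to 11.8), and *Esam* had 2.18 times that of *Cldn5* (1.45 to 3.34). *Cldn5*, *Kdr* and *Tek* were within 24.1 to 25.9 and did not differ beyond counting error. *Tek* then exceeded *Cdh5*, the next gene, by 15.8-fold (6.51 to 49.6). *Cdh5*, *Tie1*, *Flt1* and *Emcn* had an RPKM of 0.34 to 1.53, and no neighbours among them differed beyond counting error.

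The RPKM in ES cells can also be given as a percentage of that in the forebrain. This was 0.142% for *Emcn* (counting interval 0.0228 to 0.682%), 0.470% for *Cdh5* (0.153 to 1.10%), 0.484% for *Tie1* (0.177 to 1.06%) and 0.769% for *Flt1* (0.227 to 1.64%). These intervals overlap each other. For *Kdr*, *Cldn5* and *Tek* it was 4.16% (3.51 to 4.90%), 4.76% (3.19 to 6.84%) and 7.01% (5.63 to 8.64%), above the intervals of the former 4 genes. *Esam* had 18.2% (15.1 to 21.8%) and *Pecam1* 174% (163 to 186%). The median percentage was 9.15% over 20 further endothelial receptors and surface proteins, 4.49% over 16 endothelial transcription factors, 17.3% over pericyte and smooth muscle genes and 87.4% over genes of the blood-brain barrier. It was 0.602% over neuroepithelium and 0.644% over head mesenchyme.

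**Figure D3:**
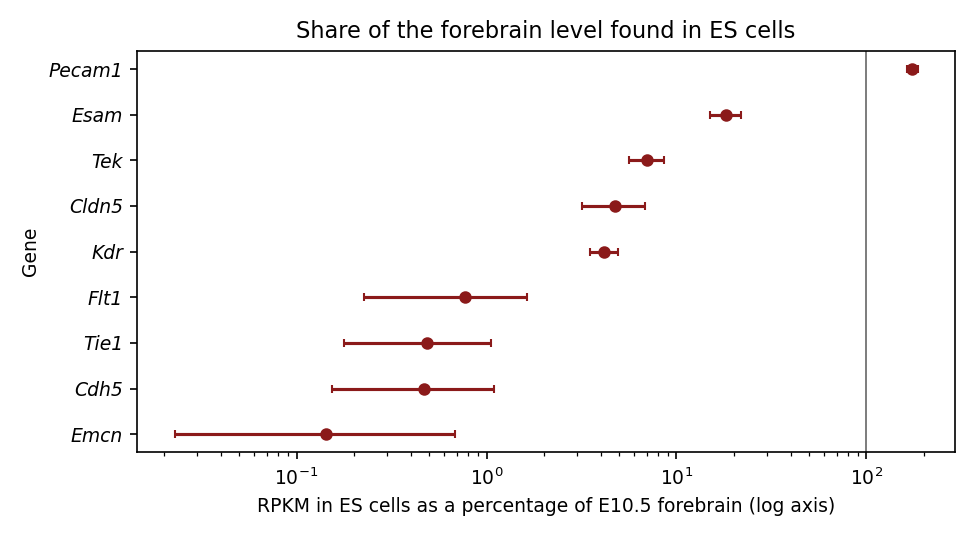
RPKM in ES cells as a percentage of the RPKM in the forebrain (log axis) for each of the 9 genes, with exact 95% intervals for counting error (1 sample per cell type). The vertical line marks equal values. *Emcn*, *Cdh5*, *Tie1* and *Flt1* are below 1%, *Kdr*, *Cldn5* and *Tek* lie at 4.16 to 7.01%, and *Pecam1* at 174%.

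The genes closest to *Cdh5* in their levels in both samples were determined over all protein-coding genes, by the distance on log2(RPKM + 1). The nearest was *Tie1* (distance 0.084), followed by *Mpped1* (0.115, with an RPKM of 1.71 in ES cells and 339.36 in the forebrain), *Stra6* (0.122, 1.36 and 341.81), *Lama2* (0.204, 1.76 and 291.25) and *1190002H23Rik* (0.214, 1.34 and 287.09). This likeness covers 2 samples only. Other endothelial genes of the 9 were further away, with *Emcn* at rank 103 (distance 1.017) and *Pecam1* at rank 12693 (7.770). In ES cells, *Cdh5* rests on 5 reads, its 5 nearest genes on 1 to 14 and *Emcn* on 2. The ranks of genes this low in ES cells, including that of *Emcn*, are therefore poorly defined.

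Other genes of the endothelial system were examined as lists. Among 20 further receptors and surface proteins, 18 had the higher RPKM in the forebrain and 14 were at least 4-fold higher, with a median log2 ratio of 3.41. *Aplnr*, the apelin receptor, had 0 in ES cells and 669.66 in the forebrain, which is at least 651-fold higher with ES cells set to the value of 3 reads. *Cd34*, a sialomucin of endothelial and haematopoietic progenitors, had the highest forebrain RPKM of this list, 1273.79, and 109.46 in ES cells. *Dll4*, a Notch ligand of arterial and tip cells, and *Eltd1* were also at 0 in ES cells and had 35.19 and 107.22 in the forebrain. Higher in ES cells were *Eng*, a co-receptor for TGF-beta family ligands (385.03 and 177.15), and *Mmrn2*, an extracellular matrix protein of vessels (285.28 and 178.18).

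Of 16 transcription factors of endothelial and blood progenitors, 13 were higher in the forebrain, 12 of them at least 4-fold, and the median log2 ratio was 4.03. The ETS factors *Fli1*, *Ets1* and *Erg* had an RPKM of 746.57, 712.46 and 86.83 in the forebrain and of 0.39, 6.37 and 0.35 in ES cells. *Nr2f2*, a factor of venous identity that mesenchyme also uses, had 2.76 in ES cells and 503.87 in the forebrain. *Tal1*, which acts in blood and vessel progenitors, had 1.12 and 303.49. The exception at the 4-fold limit was *Etv2*, an ETS factor at the onset of the endothelial lineage, with 30.36 in ES cells from 37 reads and 2.2 in the forebrain from 4 reads. *Epas1* and *Hhex* were higher in ES cells by 1.69-fold and 1.52-fold.

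Vascular ligands were examined in the same way. Of 12 genes, 10 were higher in the forebrain and 5 at least 4-fold, with a median log2 ratio of 1.04. *Vegfa*, the ligand of KDR and FLT1, had an RPKM of 30.43 in ES cells and 371.19 in the forebrain, a ratio of 12.2. *Angpt1*, the activating ligand of TEK, had 0.57 and 211.41, whereas *Angpt2* had 72.95 and 85.57, a ratio of 1.17 with an interval that includes 1 (0.993 to 1.39). *Cxcl12* had 3.14 and 632.75. *Egfl7*, which endothelial cells secrete, was high in both samples (552.13 and 767.28). *Vegfc* and *Edn1* were higher in ES cells, by 2.19-fold and 1.66-fold.

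Of 16 genes of brain vessels and of the blood-brain barrier, 9 were higher in the forebrain and 7 in ES cells, and the median log2 ratio was 0.21. This is close to the values over all protein-coding genes, of which 55.2% were higher in the forebrain, with a median of 0.17. At least 4-fold higher in the forebrain were 5 of them, among which *Gpr124*, required for vessel growth into the neural tube, had an RPKM of 12.43 in ES cells and 566.17 in the forebrain. *Mfsd2a*, a lipid transporter of the barrier, had 45.04 and 298.88. The transporter genes *Abcb1a* (363.33 and 21.03) and *Slco1c1* (35.0 and 7.53) were at least 4-fold higher in ES cells. *Slc2a1*, the glucose transporter of barrier endothelium and of many dividing cells, had the highest RPKM of this list, 5048.43 in ES cells and 2012.56 in the forebrain. In the forebrain, *Tnfrsf19* (405.31 and 1183.2) and *Abcg2* (1140.65 and 1034.44) followed.

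Genes of cell types that accompany vessels were mostly higher in the forebrain as well. Of 12 pericyte and smooth muscle genes, 11 were higher in the forebrain and 7 at least 4-fold, and their summed RPKM was 458.56 in ES cells and 2495.67 in the forebrain. *Pdgfrb*, the receptor that recruits pericytes, had 26.74 and 764.21, *Tagln* had 140.1 and 520.32, and *Notch3* had 97.21 and 487.9. *Foxf2* and *Kcnj8* were at 0 in ES cells. All 8 listed genes of head mesenchyme were at least 4-fold higher in the forebrain, with sums of 70.88 and 7670.63. *Pdgfra* (7.25 and 1795.6), *Lum* (2.35 and 1698.58) and *Twist1* (12.84 and 1556.07) had the highest levels in the forebrain.

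The same was true of genes of blood cells. All 10 erythroid genes were at least 4-fold higher in the forebrain, and their summed RPKM was 421.91 in ES cells and 801103.68 in the forebrain. The embryonic globin *Hbb-y* had 167.15 and 367633.15, *Hbb-bh1* 100.41 and 277515.8, and *Hba-a1* 43.6 and 123310.34. Reads on these 10 genes made up 1.13% of all reads on genes in the forebrain, compared with 0.0286% on the 9 endothelial genes. Of 6 genes of the platelet lineage, which shares *Pecam1* and *Esam* with endothelium, all had the higher value in the forebrain and 5 were at least 4-fold higher. Their sums were 9.20 and 1174.85, and the highest were *Pf4* (2.08 and 680.01), *Ppbp* (0 and 172.16) and *Gp1bb* (0.65 and 151.54). *Gp9* was also at 0 in ES cells.

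Of 11 macrophage genes, 10 were higher in the forebrain and 8 at least 4-fold. The exception, *Cd68*, a lysosomal protein that is not restricted to macrophages, had an RPKM of 394.82 in ES cells and 70.7 in the forebrain. The summed RPKM of the list was 495.07 and 1273.44, with *Csf1r* at 77.98 and 260.66 and *Mrc1* at 9.85 and 232.28. *Ptprc*, *Emr1*, *C1qa*, *Lyve1* and *Tyrobp* were at 0 in ES cells, and 0 genes of this list were at 0 in the forebrain. The part of the mesenchymal, mural and blood cells in the values of the 9 genes was not tested in either sample.

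**Figure D4:**
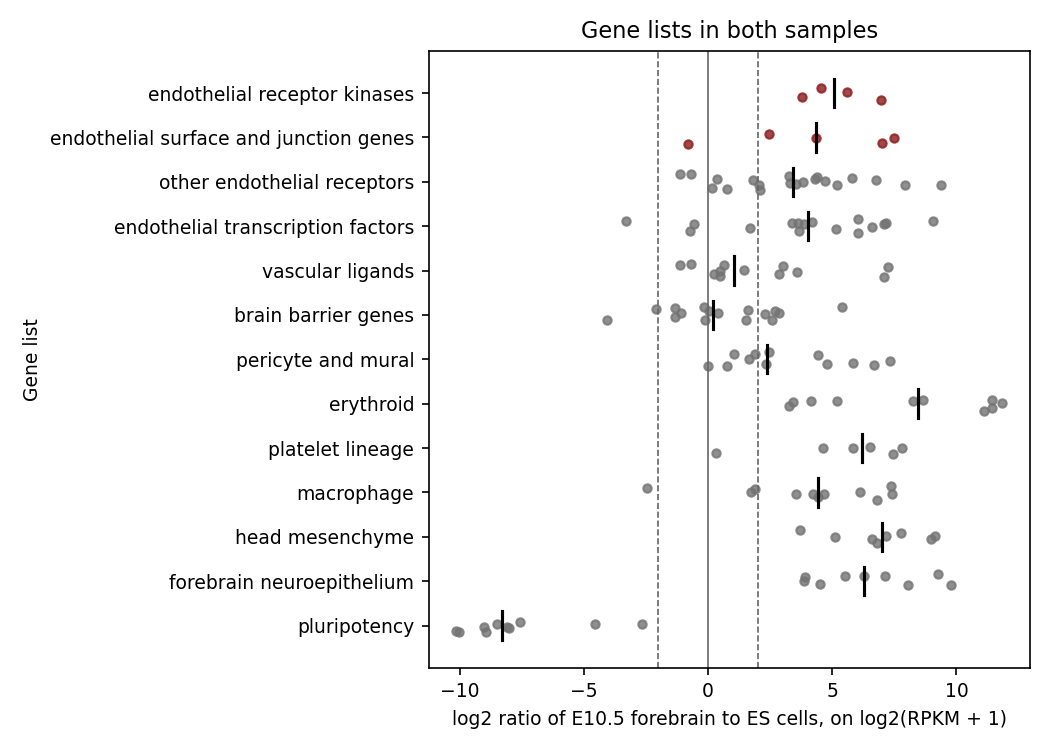
Log2 ratio of forebrain to ES cells, on log2(RPKM + 1), for the genes of 13 lists (1 sample per cell type). Each point is a gene, spread vertically for visibility, with the 9 endothelial genes in dark red, the median of each list as a black bar and a 4-fold difference as dashed lines. Medians range from -8.28 for pluripotency to 8.45 for erythroid genes, and are 5.07 for the receptor kinases and 4.34 for the surface and junction genes among the 9.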

How the data were processed

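RNA-seq of 1 ES cell and 1 E10.5 forebrain sample was used. The authors prepared strand-specific libraries of rRNA-depleted RNA, mapped single-end reads (100 bp in the labels, 50 bp in the methods) to NCBIM37 (mm9) with HTSstation, and deposited RPKM values per gene. The submitters' processing notes name Bowtie 0.12.7, and the scaling between samples is not given in the sources used here. RPKM values were taken as deposited. Exonic lengths came from the GENCODE annotation of the same build, in which all listed genes were found with the same coordinates.

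For the value of 1 read, genes of at most 2500 bp of exon were used. RPKM times kb clustered at whole multiples of 1.2222 (ES cells) and 0.8203 (forebrain). Of the values below 8 reads, 59.1% and 60.5% lay within 0.05 of a whole multiple (10% by chance). The remainder includes fractions, so reads per gene were rounded. Intervals of ratios are exact conditional intervals on these reads, and no p-values were computed.

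The 9 genes and all lists were chosen with earlier results of these data known. The rule for naming genes besides the 9 took the 3 highest of each list in either sample and those at least 4-fold higher in ES cells. It also took unlisted genes, which are not named here, and the 5 genes nearest to *Cdh5*. Not every gene under this rule is described, and a few genes were named for other reasons after their values were seen. Of the lists, 3 genes are not analysed here, and no level is given for them. They belong to head mesenchyme, with 8 of 10 genes listed, and to neuroepithelium, with 9 of 10 listed. Alternatives covered 4 scalings, pseudocounts of 0.1 and 5 in place of 1, a minimum of 10 reads and the omission of *Pecam1*. The gene length was varied for the ratio of *Kdr* to *Flt1* only. The procedure was tested on simulated data. Calculations were run in Python 3.11.15 with pandas 2.3.3, scipy 1.17.1 and numpy 2.4.6, and plots were drawn with matplotlib 3.10.9.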

Additional observations from a re-analysis of the deposited data

How the results depend on the processing

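The counts of 8 genes with a higher value in E10.5 forebrain and of 8 genes at least 4-fold higher were found under all 4 scalings, and the latter also with pseudocounts of 0.1 and 5. Leaving out *Pecam1* could not change either count, as it is not among the 8. The median log2 ratio, 4.53, became 4.81 when each sample was divided by its total, 4.15 with a pseudocount of 5 and 5.07 without *Pecam1*. The ratio of the summed RPKM, 4.46, became 5.39 with the total, 4.76 with the number of inferred reads and 20.3 without *Pecam1*. Dividing by the total also moved the median log2 ratio of all listed genes to 0.26, and the shifts of the endothelial genes are of that size. The minimum of 10 reads removed none of the 9 genes, so that it repeated the values unchanged. Of 161 values recomputed in this way, 0 changed direction and 46 counted as moved. The other 115 moved by less than the counting error (less than 1.5-fold for counts and less than 0.1 for the median of a list). This error is wide for genes with few reads in ES cells, so that large shifts of such genes can be among the 115. The pseudocount shifted these genes most. The log2 ratio was 5.52 to 9.09 for *Emcn*, 3.85 to 6.80 for *Flt1*, 5.59 to 7.60 for *Tie1* and 5.66 to 7.64 for *Cdh5*. Both values of *Emcn* are among the 115. The gene length was varied among the 161 only for the ratio of *Kdr* to *Flt1* in the forebrain. Other comparisons between genes of the same sample are not covered by the 161. For *Tek*, *Tie1* and *Emcn* the order in the forebrain was reversed by the longest transcript (348, 358 and 368). Depth limits the values in ES cells of *Cdh5*, *Tie1*, *Flt1* and *Emcn*, which rest on 6 reads or fewer. No replicate could be left out and no paired analysis was possible because each cell type has 1 sample.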
